A study of Mus musculus with 24 samples.

Results

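Genes that mark epithelium or mesothelium were followed across 2 fat depots: Krt5, Krt7, Krt8, Krt14, Krt18, Krt19, Epcam, Msln, Upk3b and Wt1. They were chosen by name, with an earlier result of these data in view: Krt8 had been seen in white and not in brown adipose cultures on day 4. The 10 genes were matched by symbol to 10 of the 37310 genes of the deposited tables. The day 4 values of both depots were thus used in the choice, so the day 4 difference between depots is described here without a test.

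The cells were stromal vascular cells, a mixed fraction of fat that holds adipocyte precursors beside other cell types, from the inguinal white adipose tissue (WAT) and the interscapular brown adipose tissue (BAT) of C57BL/6 mice 6 weeks old. All cultures were induced to adipogenic differentiation and received either EGCG (epigallocatechin gallate, a catechin of green tea, labelled EGCG incubation) or DMSO, its solvent (control). RNA was sequenced on day 4 and day 8 of differentiation, which gave 8 groups of 3 libraries. The labels give no dose of EGCG, no sex, and no statement that the replicates of a group were separate isolations, so p-values measure the spread between these libraries, which may be technical. Values are FPKM, reads scaled to gene length and to the reads on genes of the library. This unit allows levels of different genes to be compared.

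Keratins are the intermediate filament proteins of epithelia and assemble as pairs of a type II and a type I chain. Krt8 and Krt18 are the pair of simple, single-layered epithelia, Krt5 and Krt14 the pair of basal cells of stratified and glandular epithelia, and Krt7 and Krt19 are found in ducts and other simple epithelia. Epcam is an adhesion protein of the epithelial surface. Mesothelium, the lining of the body cavities and of visceral fat, carries simple keratins together with Msln (mesothelin), Upk3b (an uroplakin) and Wt1 (a zinc finger transcription factor). Inguinal fat of the mouse surrounds a mammary gland, whereas interscapular brown fat lies between the skin and the muscles of the back.

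Depth, as reads assigned to genes, was 39452696 to 52893848 per library in replicates 1 and 2 and 16392420 to 41675643 in replicate 3, which stands in a table of its own. The library of WAT day 8 EGCG replicate 3 stood apart: 5 genes took 61.0% of its reads, and its median-ratio factor was 0.458 within its table, so its FPKM values of all other genes were lowered. Tests used replicates 1 and 2. Tested were the 14095 genes with an FPKM of 1 or more in 2 or more of those 16 libraries, and 8 of the 10 genes studied here were among them. Upk3b and Wt1 did not pass. No test was made of a gene with under 10 reads on average in both groups compared.

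Krt8, Krt18, Krt5 and Epcam, which separated the depots and varied together, have a RefSeq promoter window that ends at or just before the annotated start, and these windows are shown for that reason. Each is the 250 bases before the RefSeq start, 5′ to 3′ on the strand of the gene, taken from RefSeq sequence of GRCm38.p6 and located by exact match in mm9. Capitals mark CACCTG or its reverse complement CAGGTG, the E-box that SNAI and ZEB repressors are known to bind.
Krt8 (chr15:101834774-101835023, minus strand): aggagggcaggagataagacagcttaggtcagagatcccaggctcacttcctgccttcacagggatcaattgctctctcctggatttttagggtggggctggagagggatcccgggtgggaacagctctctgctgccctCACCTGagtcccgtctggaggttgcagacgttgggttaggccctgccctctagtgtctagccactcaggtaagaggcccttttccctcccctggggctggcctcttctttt
Krt18 (chr15:101858397-101858646, plus strand): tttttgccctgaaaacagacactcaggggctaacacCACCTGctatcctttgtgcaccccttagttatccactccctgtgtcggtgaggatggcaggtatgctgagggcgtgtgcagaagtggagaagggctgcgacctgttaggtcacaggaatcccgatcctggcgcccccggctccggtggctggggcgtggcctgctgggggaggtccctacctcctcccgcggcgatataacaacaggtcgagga
Krt5 (chr15:101543337-101543586, minus strand): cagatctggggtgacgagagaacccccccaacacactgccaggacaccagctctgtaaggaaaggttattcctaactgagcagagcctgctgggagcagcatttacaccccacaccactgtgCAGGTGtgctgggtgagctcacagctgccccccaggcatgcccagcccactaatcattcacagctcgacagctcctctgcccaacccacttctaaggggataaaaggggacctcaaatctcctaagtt
Epcam (chr17:88035069-88035318, plus strand): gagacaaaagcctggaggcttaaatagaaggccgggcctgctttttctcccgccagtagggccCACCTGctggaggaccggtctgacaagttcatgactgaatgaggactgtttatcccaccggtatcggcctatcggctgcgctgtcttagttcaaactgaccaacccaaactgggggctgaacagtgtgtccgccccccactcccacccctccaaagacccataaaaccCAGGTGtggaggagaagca
The letters CACCTG, searched on both strands, were in 5 of the 7 windows that could be located for these genes (Krt5, Krt7, Krt8, Krt18 and Epcam, not Krt14 or Upk3b) and in 17.2% of 32851 RefSeq windows of the same length. GGGCGG was in 2 of the 7, those of Krt7 and Epcam, against 32.7% of all windows. TATAAA and TGANTCA were in none of the 7, against 12.4% and 6.75% of all windows. A match is a description of letters and not a binding site. The windows of Krt7 and Krt14 lie 1360 and 1518 bases inside the gene as annotated in mm9 and are not shown.

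Krt8, the type II keratin of simple epithelia, lies on chromosome 15 at 101827142 to 101834773 on the minus strand (mm9, ENSMUSG00000049382.9). It was present in every WAT library and nearly absent from BAT. On day 4 its FPKM in replicates 1, 2 and 3 was 12.9, 11.6 and 14 in WAT control and 30.0, 15.8 and 31 in WAT EGCG. On day 8 it was 8.53, 7.34 and 9.39 in WAT control and 13.3, 7.12 and 3.67 in WAT EGCG. In BAT, 11 of 12 libraries held 0 reads of Krt8 and BAT day 8 EGCG replicate 2 held 1 read, against 11155 reads in the 12 WAT libraries. The depots did not overlap on either day. With BAT set to a floor of 3 reads per library, the mean of replicates 1 and 2 was at least 313-fold higher in WAT on day 4 in control cells and at least 640-fold in EGCG cells. These floors cover counting error only. RNA of mixed cells cannot tell fewer cells of a type from less RNA per cell, for Krt8 or for any gene below.

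In order, the Krt8 means of replicates 1 and 2 in WAT were 22.9 ± 10.1 FPKM in day 4 EGCG, 12.2 ± 0.930 in day 4 control, 10.2 ± 4.41 in day 8 EGCG and 7.94 ± 0.842 in day 8 control (SD, n = 2). Over all 3 replicates, the day 4 EGCG libraries lay above the day 4 control libraries without overlap. The ranges of day 4 control and day 8 EGCG overlapped, as did those of day 8 EGCG and day 8 control, whereas day 4 control lay above day 8 control without overlap.

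Krt18, the type I partner of Krt8, starts 23874 bases from it on the opposite strand of chromosome 15 (101858647 to 101862457, ENSMUSG00000023043.6). Its FPKM in WAT was 8.30, 7.66 and 27.3 in day 4 control and 24.9, 12 and 70.7 in day 4 EGCG. On day 8 it was 4.58, 3.77 and 12.3 in control and 6.02, 3.92 and 5.59 in EGCG. BAT had 10 reads in 12 libraries, of which 4 were in day 4 EGCG replicate 2 and 6 in day 8 control replicate 1. Replicate 3 stood above both other replicates in 3 of the 4 WAT groups. Its value was 3.42, 3.83 and 2.95 times the mean of replicates 1 and 2 in day 4 control, day 4 EGCG and day 8 control, and 2.57 times in day 8 EGCG after scaling within each table.

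Krt14, the type I keratin of basal cells (chromosome 11, 100064476 to 100068862, minus strand, ENSMUSG00000045545.8), showed the same kind of pattern. Its FPKM in WAT was 7.92, 6.03 and 24.1 in day 4 control, 18.8, 8.40 and 48.1 in day 4 EGCG, 3.99, 3.45 and 12.3 in day 8 control and 6.33, 4.42 and 5.69 in day 8 EGCG. No BAT library held a read of Krt14, whereas the WAT libraries held 7966. Replicate 3 was again high in WAT, at 3.46 times the mean of the others in day 4 control and 3.54 times in day 4 EGCG, while Krt8 in the same libraries was at 1.14 and 1.35 times. The cause of this step between the tables was not tested. Krt14, Krt16 and Krt17 are close copies of each other, as are Krt5 and Krt6a, and how reads that fit more than one of them were counted is not given in the sources used here.

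Krt5, the type II partner of Krt14 (chromosome 15, 101537501 to 101543322, minus strand, ENSMUSG00000061527.5), was highest on day 4. WAT control libraries held 6.36, 2.81 and 5.49 FPKM on day 4 and 0.624, 0.796 and 1.35 on day 8. The EGCG libraries held 10.5, 4.85 and 7.50 on day 4 and 1.49, 0.974 and 0.383 on day 8. The day 4 and day 8 libraries of WAT did not overlap under either treatment. BAT held 13 reads in all, 9 of them in day 8 EGCG replicate 2.

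Epcam (chromosome 17, 88035319 to 88050446, plus strand, ENSMUSG00000045394.8) is the one surface protein among the 5 genes. Its FPKM in WAT was 3.93, 3.28 and 3.20 in day 4 control, 9.49, 4.44 and 8.57 in day 4 EGCG, 2.87, 1.89 and 2.25 in day 8 control and 4.32, 2.32 and 1.06 in day 8 EGCG. BAT held 15 reads in 12 libraries, and all of them were in EGCG libraries. The highest BAT library had 7 reads, and the lowest WAT library had an FPKM of 1.06.

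**Figure D1:**
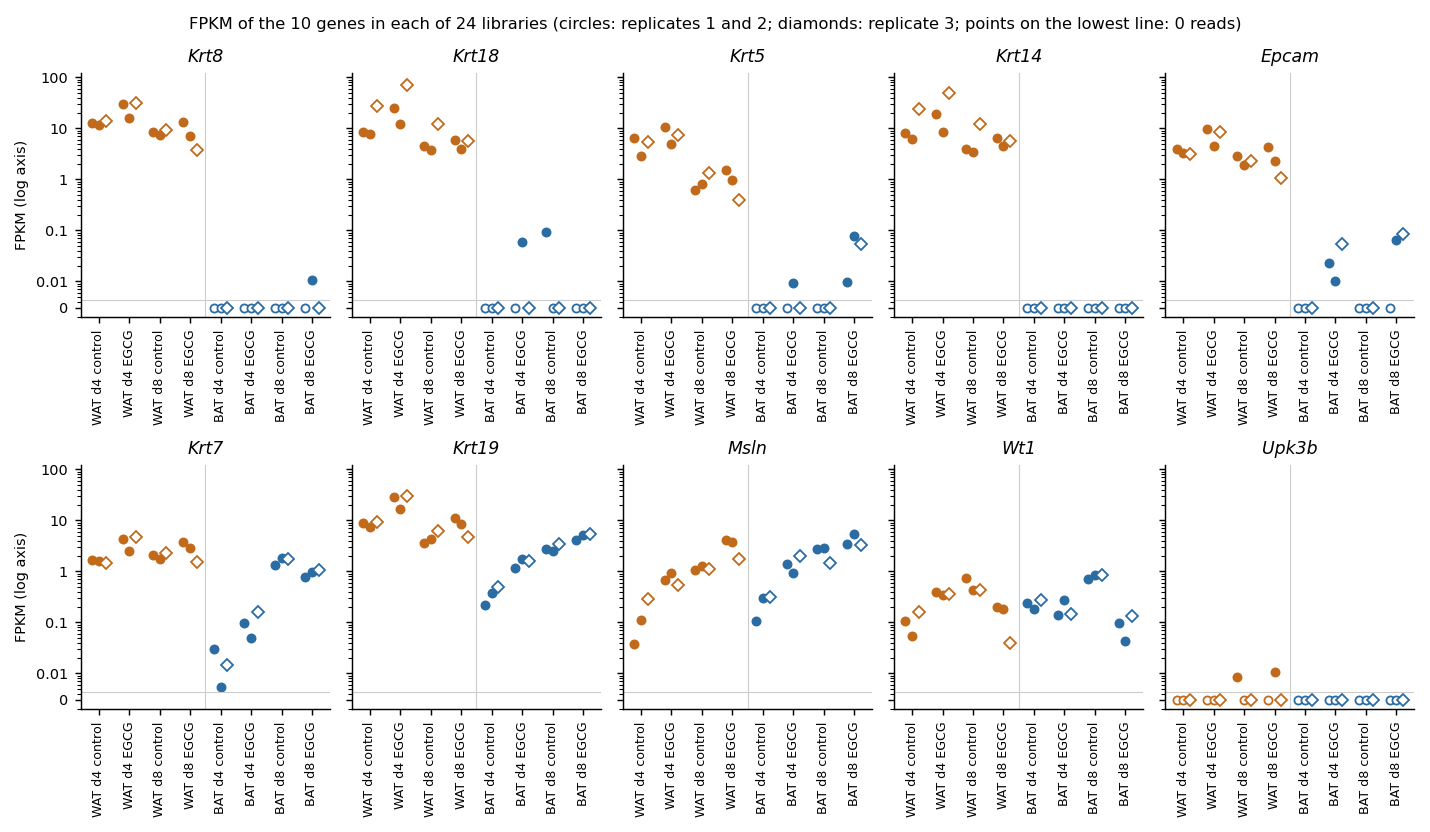
FPKM (log axis) of each of the 10 genes in every library by group, with WAT in orange, BAT in blue, circles for replicates 1 and 2, diamonds for replicate 3 and open points on the lowest line for 0 reads. Krt8, Krt18, Krt5, Krt14 and Epcam sit at 1 or above in nearly all WAT libraries and at 0 or under 0.1 in BAT, Krt7 and Krt19 are low in BAT on day 4 alone, and Msln and Wt1 have reads in every library of both depots.

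Krt8, Krt18, Krt5, Krt14 and Epcam were higher in every WAT library than in every BAT library, 5 of the 10 genes. Over all genes with a read in any library, 68 of 26853 (0.253%) had this property. Day 4 values of the depots entered the choice of the genes, so nothing is read from this share. In day 4 control, with a floor of 3 reads per BAT library, the WAT mean was at least 168-fold higher for Krt14, 158-fold for Krt18, 142-fold for Krt5 and 104-fold for Epcam.

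The 5 genes also differed together between WAT libraries of 1 group. WAT day 4 EGCG replicate 1 held 1.90 times the Krt8, 2.08 times the Krt18, 2.24 times the Krt14, 2.16 times the Krt5 and 2.14 times the Epcam of replicate 2. The ratios for Krt19 and Krt7 in this pair were 1.73 and 1.77. In WAT day 4 control the same ratio was 2.26 for Krt5 and 1.11 for Krt8. Replicates 1 and 2 of a WAT group thus differed in these genes by up to 2.26 times on day 4.

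By Pearson's r of log2(FPKM + 1) over 16 libraries, the 5 genes most like Krt8 were Krt14 (0.995), Epcam (0.993), Krt18 (0.991), Krt17 (0.979) and Irx2 (0.975). The first 4 are epithelial genes, and Irx2 is a homeobox transcription factor. In the 8 libraries of replicate 3 the values in the same order were 0.999, 0.985, 0.998, 0.984 and 0.983. Krt14, Krt18 and Epcam had each other, Krt8 and Krt17, Cldn4, Csn3 or Pkp1 as their 5 nearest genes, with r of 0.981 or more, and 0.967 or more in replicate 3. Those of Krt5 were 1600029D21Rik (0.983), Wfdc2 (0.981), Krt6a (0.979), Csn3 (0.967) and Cldn3 (0.964), at 0.928 or more in replicate 3. All of these points share the split into WAT and BAT libraries, which by itself gives a high r.

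**Figure D2:**
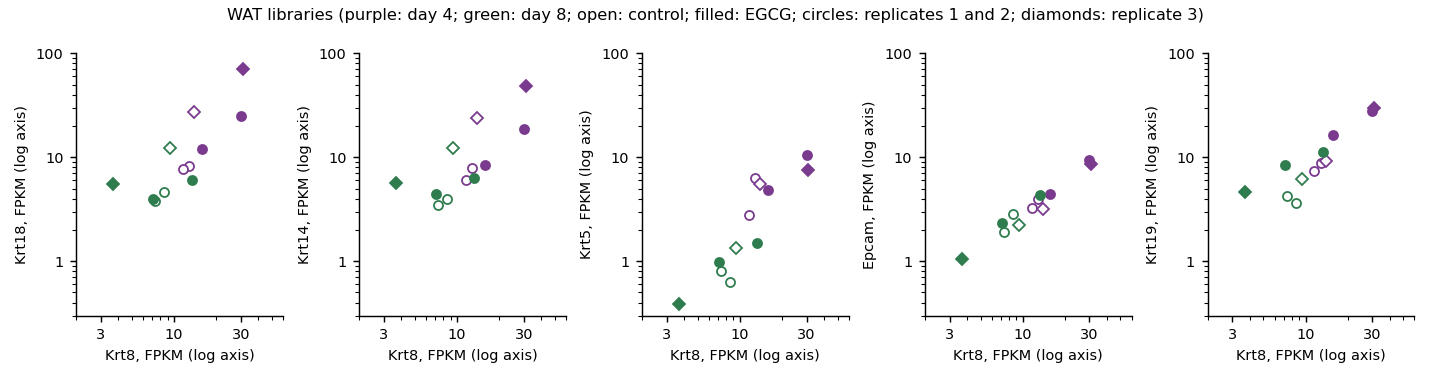
FPKM of Krt18, Krt14, Krt5, Epcam and Krt19 against that of Krt8 (both log axes) in the 12 WAT libraries, with day 4 in purple, day 8 in green, control open, EGCG filled, replicates 1 and 2 as circles and replicate 3 as diamonds. The diamonds of Krt18 and Krt14 lie above the circles at the same Krt8 level, while those of Epcam lie among them.

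Krt7 and Krt19 behaved differently, since both were found in BAT as well. Krt19, the smallest type I keratin (chromosome 11, 100002124 to 100009979, minus strand, ENSMUSG00000020911.8), had an FPKM of 8.83, 7.34 and 9.29 in WAT day 4 control and 0.221, 0.367 and 0.491 in BAT day 4 control. On day 8 the control values were 3.61, 4.28 and 6.13 in WAT and 2.77, 2.49 and 3.48 in BAT. The depots did not overlap on either day, but the ratio of the means of replicates 1 and 2, WAT over BAT, was 27.5 on day 4 and 1.50 on day 8. With EGCG, WAT held 28.1, 16.3 and 29.8 on day 4 and 11.3, 8.37 and 4.61 on day 8, and BAT held 1.17, 1.74 and 1.61 and 4.08, 5.16 and 5.33. On day 8 with EGCG the depots overlapped through the WAT library that stood apart.

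Krt7, a type II keratin of ductal epithelia (chromosome 15, 101241474 to 101260744, plus strand, ENSMUSG00000023039.9), was close to absent from BAT on day 4, with 5, 1 and 1 reads in the control and 17, 10 and 12 reads in the EGCG libraries. On day 8 BAT held 1.33, 1.79 and 1.73 FPKM in control and 0.787, 0.974 and 1.03 in EGCG. WAT held 1.65, 1.57 and 1.45 in day 4 control and 2.13, 1.75 and 2.28 in day 8 control, which shows no such step. With EGCG the WAT values were 4.38, 2.48 and 4.70 on day 4 and 3.66, 2.84 and 1.52 on day 8.

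The genes nearest to Krt19 by r over 16 libraries were Epha1 (0.930), Zfp608 (0.919), Cacng1 (0.919), Gfra2 (0.910) and Spint2 (0.909). Those nearest to Krt7 were Pgap3 (0.936), Tcap (0.910), Myl4 (0.890), Coro2b (0.884) and Krt19 (0.884). In the 8 libraries of replicate 3 the r of Zfp608 with Krt19 was 0.661 and that of Pgap3 with Krt7 was 0.403, the lowest of each set, and the highest were those of Epha1 (0.949) and Krt19 (0.921). None of the 5 genes absent from BAT was among them.

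The 3 mesothelial genes did not follow the keratins. Upk3b (chromosome 5, 136514366 to 136521173, plus strand, ENSMUSG00000042985.6) had 1 read in WAT day 8 control replicate 1, 1 read in WAT day 8 EGCG replicate 2 and 0 in the other 22 libraries. Msln, a surface protein of mesothelial cells (chromosome 17, 25885559 to 25891272, minus strand, ENSMUSG00000063011.6), had an FPKM of 0.0369, 0.11 and 0.289 in WAT and 0.106, 0.305 and 0.310 in BAT in day 4 control, and the depots overlapped. On day 8 the control values were 1.06, 1.26 and 1.11 in WAT and 2.75, 2.81 and 1.47 in BAT. With EGCG they were 0.665, 0.923 and 0.545 in WAT and 1.38, 0.931 and 2.01 in BAT on day 4, and 4.09, 3.76 and 1.75 and 3.36, 5.27 and 3.23 on day 8. BAT was above WAT without overlap in day 8 control and day 4 EGCG, the reverse of the order seen for Krt8, and the depots overlapped in day 8 EGCG.

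Wt1 (chromosome 2, 104966686 to 105013773, plus strand, ENSMUSG00000016458.6) stayed under an FPKM of 1 in all 24 libraries. In control cells it was 0.107, 0.0528 and 0.158 in WAT and 0.241, 0.180 and 0.269 in BAT on day 4, and 0.728, 0.427 and 0.429 and 0.716, 0.836 and 0.860 on day 8. In EGCG cells it was 0.396, 0.340 and 0.359 in WAT and 0.140, 0.269 and 0.143 in BAT on day 4, and 0.199, 0.179 and 0.0388 and 0.0967, 0.0428 and 0.131 on day 8. On day 4 the depots did not overlap, with BAT above WAT in control and below it in EGCG, and on day 8 they overlapped under both treatments. The name of mesothelial genes is thus carried here by Msln and Wt1 alone, at low levels, and by no measurable Upk3b. Genes nearest to Msln were Pef1 (0.974), Sirt2 (0.969), 1700019E19Rik (0.968), Spata6 (0.968) and Nacad (0.967), with r in the 8 libraries of replicate 3 between 0.439 for Sirt2 and 0.903 for Nacad.

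The depots were also compared on day 8. Krt8, Krt18, Krt14, Krt5 and Epcam passed the filter on low values only through WAT libraries, and could only come out lower in BAT. Krt8 was also chosen for its absence from BAT on day 4. The p-values of these genes therefore cannot decide whether the depots differ, and nothing is read from them. Log2 changes below are differences of log2(FPKM + 1), which understate the change of genes near 0, and adjusted p-values are from limma with Benjamini-Hochberg adjustment over all 14095 genes. The labels do not say whether the day 4 and day 8 cultures came from the same isolations of cells. In day 8 control cells the BAT minus WAT difference of Krt8 was -3.16 ± 0.26 (SE, adjusted p = 1.58e-06). Krt18 (-2.30), Krt14 (-2.24) and Epcam (-1.74) were lower too, with adjusted p of 1.27e-05, 2.47e-05 and 0.000221. Against a floor of 3 reads per BAT library, the mean FPKM in WAT was at least 204-fold higher for Krt8, at least 89.9-fold for Krt14 and at least 69.1-fold for Epcam. Krt18 had 6 reads in BAT day 8 control, all in replicate 1. Msln was higher in BAT (0.81, adjusted p = 0.00134). In all, 5 of 8 genes passed, against 53.6% of all genes tested. Krt5 did not pass at -0.77 (adjusted p = 0.0508), nor did Krt19 at -0.44 (95% interval -0.93 to 0.04) and Krt7 at -0.20 (-0.59 to 0.18). Krt5 passed with a pseudocount of 0.1 (adjusted p = 0.000165), with median-ratio scaling (0.0363), with the replicate block (0.0376) and with both tables (0.000524).

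In day 8 EGCG cells 7 of 8 genes were lower in BAT, against 38.4% of all genes called. Krt8 differed by -3.42 ± 0.26 (adjusted p = 2.67e-06), Krt14 by -2.66 (1.75e-05), Krt18 by -2.56 (1.60e-05) and Epcam by -2.03 (0.000156). Krt7 (-1.17), Krt5 (-1.09) and Krt19 (-0.94) also passed, with adjusted p of 0.000337, 0.0150 and 0.00562. Msln was at 0.09 (-0.27 to 0.44, adjusted p = 0.721). The calls of Krt5 and Krt19 rested on single libraries. Krt5 had an adjusted p of 0.0976 without WAT day 8 EGCG replicate 1, 0.0724 without BAT day 8 EGCG replicate 1 and 0.0546 without BAT day 8 EGCG replicate 2. Krt19 had 0.0556 without WAT day 8 EGCG replicate 1 and 0.0506 without BAT day 8 EGCG replicate 1. For Krt8, Krt14, Krt18 and Epcam every alternative tried kept the call in both day 8 comparisons. These 4 genes and Krt5 passed the filter on low values only through WAT libraries and could only come out lower in BAT. Nothing is therefore read from their p-values, from the calls that were kept or from the counts of genes called.

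EGCG was compared with control within each depot. In WAT on day 4, 6 of the 7 genes tested were higher with EGCG, against 53.7% of all genes called in either direction. Krt19 rose by 1.31 ± 0.22 (adjusted p = 0.000380), Krt18 by 1.03 (0.00447), Krt14 by 0.79 (0.0253), Msln by 0.74 (0.00252), Krt7 by 0.73 (0.00438) and Epcam by 0.72 (0.0434). Krt5 was at 0.63 (adjusted p = 0.103). For Krt8, whose day 4 values entered the choice of genes, the difference was 0.79 and is given without a test. The mean FPKM of Krt19 went from 8.08 ± 1.05 to 22.2 ± 8.38 and that of Krt18 from 7.98 ± 0.449 to 18.5 ± 9.14 (SD, n = 2). In replicate 3 the difference was positive for all 8 genes.

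A single library carried much of this increase. Without WAT day 4 EGCG replicate 1, Krt14 was at 0.25 (adjusted p = 0.288), Epcam at 0.24 (0.448), Krt18 at 0.53 (0.0328) and Krt7 at 0.42 (0.0460), so that the first 2 lost their call. Without replicate 2 of the same group, Krt14 was at 1.32, Epcam at 1.19 and Krt5 at 1.12, and Krt5 then passed (0.00983). Leaving out WAT day 4 control replicate 1 also let Krt5 pass (0.0126) and ended the call of Epcam (0.0802), and leaving out control replicate 2 ended those of Krt14 (0.151) and Epcam (0.173). Krt19 and Msln kept their calls without any single library. Epcam also lost its call under median-ratio scaling (0.0777), and Krt14 with both tables (0.124).

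Genes of other cell types moved in the same comparison. Of the tested endothelial markers 7 of 8 were higher with EGCG in WAT on day 4, of the immune markers 4 of 5, of the skeletal muscle markers 3 of 3, and of the adipocyte markers 6 of 6 were lower, while 53.7% of all genes were called, 4853 of 14095 higher and 2714 lower. The summed FPKM of the 6 adipocyte markers was 1954 to 2555 in the control and 374 to 411 in the EGCG libraries, that of the 9 endothelial markers 18.7 to 20.9 and 39.8 to 43.7, that of the 8 immune markers 65.6 to 70.7 and 164 to 180, and that of the 5 muscle markers 30.5 to 30.9 and 58.1 to 59.7. Contractile and pericyte markers mostly fell, 2 of 8 being higher and 5 lower. Their sums were 183 to 208 in control and 106 to 112 in EGCG libraries. Fibroblast markers were split, 4 of 12 being higher and 3 lower, with sums of 13608 to 14339 and 10459 to 11392. Of 5 glial markers 2 were higher and 0 lower, with sums of 8.78 to 10.9 and 17.8 to 23.7. In each of these lists the groups did not overlap. On day 8 in WAT the adipocyte sum was 4279 to 4901 in control and 49.2 to 145 in EGCG, and in BAT it was 4859.5 to 6288 and 1145 to 1164 on day 4 and 8051 to 8653 and 284 to 294 on day 8, each a range of 3 libraries. The part of these cell types in the change of the epithelial genes was not tested.

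In WAT on day 8, 3 of 8 genes were higher with EGCG, against 63.6% of all genes called. Msln rose by 1.19 ± 0.16 (adjusted p = 5.12e-05), Krt19 by 1.12 ± 0.22 (0.000798) and Krt7 by 0.53 (0.0202). Krt8 was at 0.27 (-0.30 to 0.85, adjusted p = 0.387), and Krt5, Krt14, Krt18 and Epcam at 0.38, 0.42, 0.19 and 0.33 did not pass either. The call of Krt7 was lost without WAT day 8 control replicate 2 (adjusted p = 0.109) and without WAT day 8 EGCG replicate 1 (0.147), and Krt8 passed without WAT day 8 EGCG replicate 2 (0.0419). The median log2 change of all genes tested was 0.17 here and 0.01 after median-ratio scaling, under which Krt7 was at 0.39 (adjusted p = 0.0748).

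In BAT 3 genes could be tested, Krt7, Krt19 and Msln. On day 4, Krt19 rose with EGCG by 0.92 (adjusted p = 0.00455) and Msln by 0.84 (0.00121), 2 of 3 against 48.5% of all genes, and Krt7 was at 0.07 (0.761). On day 8, Krt19 rose by 0.62 (0.0227) and Msln by 0.47 (0.0212) while Krt7 fell by 0.44 on the log2 scale (0.0397), 3 of 3 against 72.6% of all genes. The day 8 calls rested on single libraries. Without BAT day 8 control replicate 2 and without BAT day 8 EGCG replicate 2 none of the 3 passed, with adjusted p of 0.221 and 0.0631 for Krt7, 0.0960 and 0.139 for Krt19, and 0.0633 and 0.263 for Msln, whose value without EGCG replicate 2 was 0.21. Msln was at 0.73 without EGCG replicate 1, which ended the call of Krt7 (0.167). Without BAT day 8 control replicate 1, Krt19 (0.0526) and Msln (0.0749) did not pass. All genes had a median log2 change of 0.17, and after median-ratio scaling, which brought it to 0.02, Krt19 (0.47, adjusted p = 0.0673) and Msln (0.32, 0.0967) did not pass.

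Wt1, fitted without the filter on low values, was higher with EGCG in WAT on day 4 (0.34, adjusted p = 0.0126) and lower on day 8 in WAT (-0.40, 0.00379) and in BAT (-0.73, 4.56e-05). In BAT on day 8 its mean FPKM was 0.0898 times that of the control, at 7 to 14 reads per EGCG library and 47 to 103 per control library. On day 8 Wt1 thus fell in both depots while Msln was higher with EGCG.

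The EGCG change differed between depots on day 8 for 2 of the 3 genes that could be tested in both, against 39.2% of all genes. For Krt7 the change in BAT minus that in WAT was -0.97 ± 0.25 (adjusted p = 0.00925) and for Msln -0.72 ± 0.23 (0.0274). For Krt19 it was -0.50 (-1.18 to 0.18, adjusted p = 0.233). Msln did not pass when any one of 6 of the 8 libraries was left out (WAT control replicate 1, both WAT EGCG and both BAT control replicates, and BAT EGCG replicate 1), the largest move being to -0.46 without BAT day 8 EGCG replicate 1 (adjusted p = 0.108). Krt7 kept its call in each of these fits.

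Day 8 was compared with day 4 in control cells. In WAT, 4 of 7 genes were lower on day 8 and 1 was higher, against 61.0% of all genes called. Krt5 fell by 1.63 on the log2 scale (SE 0.31, adjusted p = 0.000627), Krt19 by 0.87 (0.00451), Krt18 by 0.80 (0.0158) and Krt14 by 0.75 (0.0276), and Msln rose by 1.01 (0.000214). Krt7 (0.17) and Epcam (-0.46, adjusted p = 0.169) did not pass, and Krt8 was at -0.57 with no test. Krt5 would not have passed the filter on low values without the day 4 libraries, nor Msln without those of day 8. Nothing is therefore read from their p-values or from the counts that hold them. The mean FPKM of Krt5 on day 8 was 0.155 times that of day 4, against 0.649 times for Krt8. The calls of Krt14 and Krt18 were lost without WAT day 4 control replicate 1 (adjusted p = 0.163 and 0.0732), without WAT day 8 control replicate 2 (0.112 and 0.0852) and with both tables (0.0917 and 0.0661), and that of Krt14 also without WAT day 8 control replicate 1 (0.0518).

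In BAT the 3 measurable genes were all higher on day 8, against 69.2% of all genes called. Msln rose by 1.65 (adjusted p = 2.58e-06), Krt19 by 1.49 (7.60e-05) and Krt7 by 1.33 (3.20e-05), and the mean FPKM of Krt7 was 87.3 times that of day 4, from 6 reads in replicates 1 and 2 together. Msln would not have passed the filter on low values without the day 8 libraries, so nothing is read from its p-value or from the count that holds it. Wt1, fitted without the filter, rose in WAT (0.54, 0.000626) and in BAT (0.55, 0.000418). The day change in BAT minus that in WAT was 2.36 for Krt19, 1.16 for Krt7 and 0.65 for Msln. It contains the day 4 difference between depots, which entered the choice of the genes, so it is given without a test, and nothing is read from the 3 of 3 genes past the threshold against 40.0% of all genes. Krt19 went in opposite directions, falling in WAT and rising in BAT. For Msln the value depended on the scale, since it turned to -0.22 on the reads themselves.

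**Figure D3:**
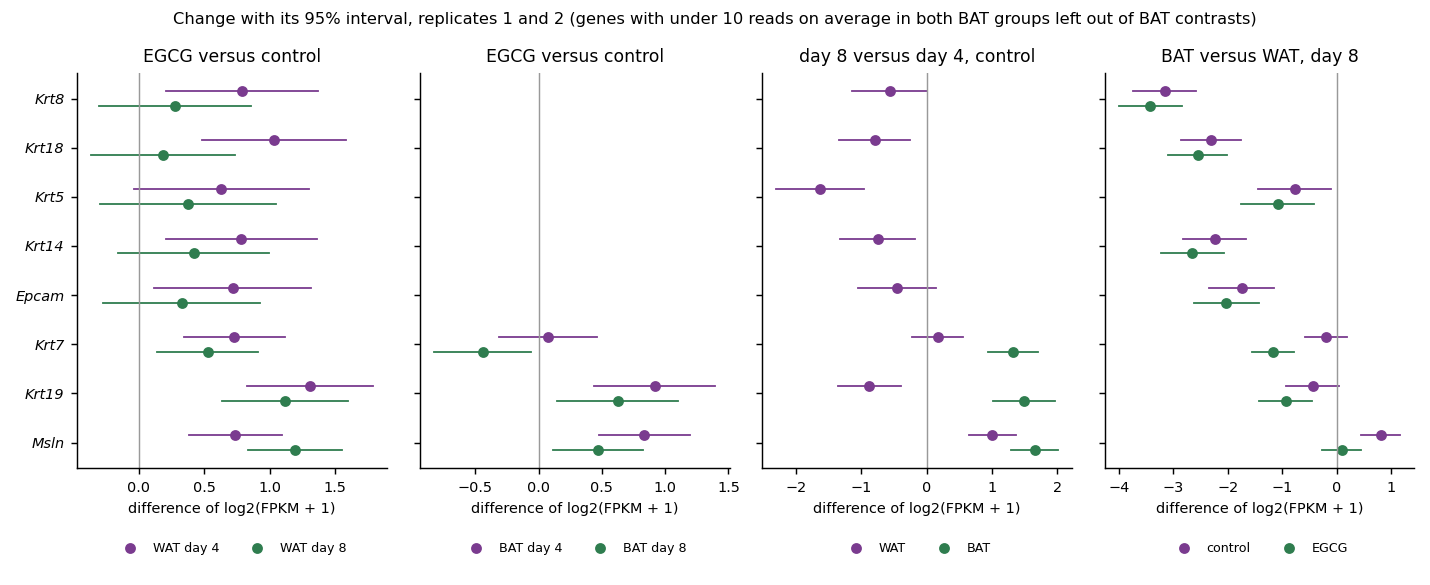
Difference of log2(FPKM + 1) with its 95% interval for the 8 genes that passed the filter, in replicates 1 and 2, for EGCG against control in WAT and in BAT, day 8 against day 4, and BAT against WAT on day 8. Krt8, Krt18, Krt14 and Epcam lie at -1.74 or lower in both BAT versus WAT comparisons, and Krt19 lies right of 0 in all 4 EGCG comparisons.

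Other keratins were few. Of 44 keratin genes besides those studied here, 6 reached an FPKM of 1 in at least 1 of 24 libraries, and the highest over replicates 1 and 2 were Krt17, Krt10 and Krt6a. Krt17, a type I keratin of basal and appendage epithelium, ranged from 0.851 to 11.3 in WAT and from 0 to 0.0355 in BAT. Krt6a, a type II keratin of activated and luminal epithelium, ranged from 0.0802 to 4.18 in WAT and up to 0.0404 in BAT. Krt10, a keratin of the upper epidermis, did not separate the depots, with 0.447 to 1.71 in WAT and 0.581 to 1.45 in BAT.

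Marker lists of epithelia were read in the same libraries. Of 22 further simple epithelial markers, 9 were higher in every WAT library than in every BAT library, of 16 mammary luminal markers 3, of 15 basal markers 4, of 12 epidermal markers 0 and of 13 mesothelial markers 0. These lists were also chosen with earlier results known and include day 4, so the counts are descriptions. Cdh1 (E-cadherin) ranged from 0.552 to 6.21 FPKM in WAT and reached 9 reads at most in BAT. The tight junction claudins Cldn3 (0.416 to 6.91), Cldn4 (1.63 to 15.6) and Cldn7 (0.271 to 3.16) were above all BAT libraries, as was the protease inhibitor Spint2 (1.18 to 12.7 in WAT, 0.0852 to 0.958 in BAT). The splicing regulator Esrp1 and the transcription factor Grhl2 had at most 4 reads and 1 read in a BAT library. Cd24a, the highest of the list, and Esrp2 were found in both depots, with 1.85 to 40.5 and 0.766 to 3.41 in WAT and 0.439 to 22.8 and 0.647 to 3.37 in BAT.

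The milk and secretory genes were low but mostly confined to WAT. Csn3 (kappa-casein) ranged from 0.535 to 10.7 in WAT and reached 2 reads in BAT. Wfdc18, listed as Expi, ranged from 1.16 to 19 in WAT and from 0 to 0.190 in BAT. Csn2 (beta-casein) had a mean of 2.84 in day 4 control and 2.13 in day 4 EGCG, and 0 on day 8 in replicates 1 and 2 of both WAT groups. Pgr, the progesterone receptor, was above BAT in all WAT libraries (1.19 to 7.63 against 0 to 0.258), whereas Kit (0.664 to 3.12 and 0.818 to 1.91) and Prlr (0.0557 to 2.86 and 0.193 to 3.66) were found in both. The milk proteins Wap and Lalba were near 0, with 0 to 0.158 and 0 to 0.0832 in WAT and 0 to 0.215 and 0 to 0.0293 in BAT.

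Among basal markers, Krt17, Krt6a, the desmosomal protein Pkp1 (0.252 to 2.11 in WAT, 0.0130 to 0.0892 in BAT) and the hemidesmosomal collagen Col17a1 (0.125 to 1.63, 0.00385 to 0.109) separated the depots. Sfn (1.28 to 4.99 and 0.807 to 3.11) and Perp (0.773 to 5.88 and 0.0915 to 10.1), a p53 target, did not. Trp63, the transcription factor of basal cells, stayed at 0.0313 to 0.416 in WAT and 0.0127 to 0.221 in BAT, and of the desmosome list Dsp, Pkp3 and Dsg2 separated the depots while the linker proteins Plec (means of 10.5 in WAT and 15.4 in BAT in day 4 control) and Dst (12.8 and 13.4) did not. Of 13 mesothelial markers, 8 held at least 3 reads in every library of WAT day 4 control and 6 in every library of BAT day 4 control. Muc16, Lrrn4 and Calb2, named after their values were seen, ranged from 0 to 0.0829, 0 to 0.0487 and 0 to 0.0336 in WAT. A BAT library held at most 0, 37 and 1 reads of them. Of the 13 markers, 7 passed the filter on low values, so these 3 do not stand for the list. Efemp1 (34.7 to 158 and 91 to 208) and Pdpn (28 to 222 and 16.1 to 131), the highest of that list, were abundant in both depots, and fibroblasts express both as well.

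**Figure D4:**
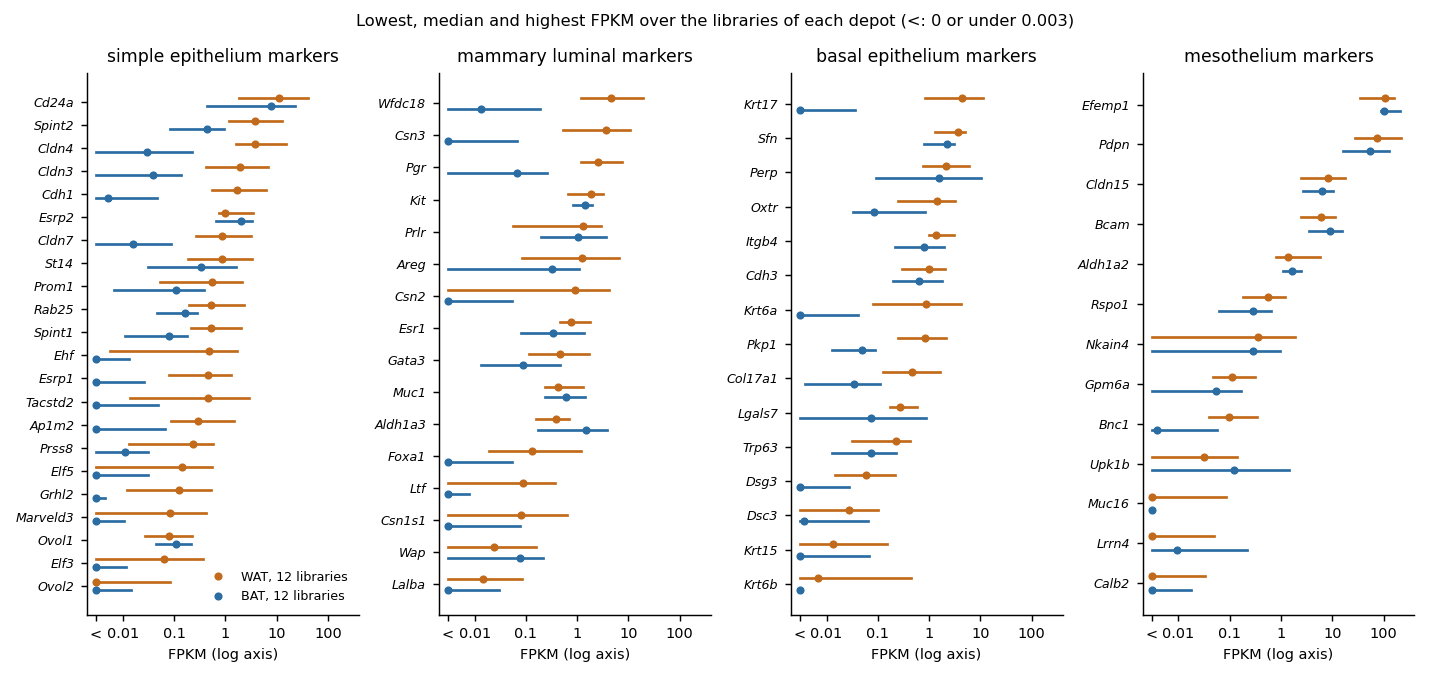
Lowest, median and highest FPKM (log axis) of each marker over the 12 libraries of WAT (orange) and of BAT (blue), for simple epithelial, mammary luminal, basal and mesothelial markers, with values of 0 or under 0.003 at the left edge. Cldn4, Cldn3, Cdh1, Csn3, Krt17 and Krt6a have separate ranges in the depots, while Efemp1, Pdpn, Bcam and Aldh1a2 overlap.

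On day 8 the depots were compared for these lists as well. Cldn4, Cldn3, Cdh1, Spint2, Pgr, Csn3, Wfdc18 and Krt17, among others, stayed under an FPKM of 1 in every BAT library. They passed the filter only through WAT, so nothing is read from the counts that hold them. Counts stand against 53.6% of all genes called in control and 38.4% in EGCG cells. In control cells 5 of 12 tested simple epithelial markers were lower in BAT and 0 higher, a share below that of all genes, with Cldn4 at -1.53 (adjusted p = 0.00139), and the median of the 12 was -0.38 against 0.05 for all genes. In EGCG cells 7 of 12 were lower and 0 higher, with Cldn4 at -2.24, Spint2 at -1.72, Cldn3 at -1.34 and Cdh1 at -1.28, and the median was -0.57 against 0.05. Of 11 mammary luminal markers 3 were lower and 1 higher in control cells, and 6 lower and 1 higher in EGCG cells. Pgr (-2.23 and -2.79), Csn3 (-1.46 and -1.63) and Wfdc18 (-1.17 and -2.33) were the lower ones past 1 in both, and Aldh1a3 (1.14 and 1.54) was the higher one. Of 8 basal markers 4 were lower in control cells, with Krt17 at -2.07 and Sfn at -1.12, and 4 lower and 1 higher in EGCG cells, with Krt17 at -1.71. Of 7 mesothelial markers 4 were lower and 1 higher in control cells, with Cldn15 at -1.23 and Pdpn at -1.21, and 2 lower and 1 higher in EGCG cells, with Upk1b at 1.05. Of 3 epidermal markers 1 was lower and 1 higher in control cells (Cdsn, 1.90) and 1 lower in EGCG cells.

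With EGCG most of the tested simple epithelial markers were higher in WAT. On day 4, 10 of 12 were higher and 0 lower against 53.7% of all genes called (median 0.82 against 0.09 for all genes), with Cldn4 at 1.29 (adjusted p = 0.00442) and Cd24a at 1.17. Cldn4 was at 15.6 FPKM in WAT day 4 EGCG replicate 1 and 7.23 in replicate 2, against 3.56 to 4.08 in the 3 control libraries. On day 8, 11 of 12 were higher and 0 lower against 63.6% of all genes called (median 0.66 against 0.17), with Cd24a at 1.47 and Esrp2 at 1.07. In BAT 2 of 12 were higher on day 4 (48.5% of all genes called), with Esrp2 at 1.21, and 3 of 12 on day 8 (72.6%), with Cd24a at 1.90, St14 at 1.16 and Esrp2 at 1.04. The rise of Cd24a, Esrp2, St14 and Perp (1.60 in WAT and 2.44 in BAT on day 8, 1.50 in BAT on day 4) was thus not limited to the depot that held Krt8. The mammary ligand Areg (1.32) and Wfdc18 (1.07) were higher in WAT on day 4 and Wfdc18 (1.20) on day 8, and Prlr was lower on day 8 in WAT (-1.73) and in BAT (-1.86) and on day 4 in BAT (-1.21). Of the mesothelial list, Pdpn was higher in all 4 comparisons (2.22, 2.10, 2.32 and 2.54), Bcam in BAT on day 4 (1.16) and Upk1b in BAT on day 8 (1.22), and Efemp1 was lower in WAT on day 4 (-1.55). Cdsn, an epidermal adhesion protein, was lower in BAT on day 8 (-2.46).

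From day 4 to day 8 in WAT control cells 8 of 12 simple epithelial markers were lower and 0 higher against 61.0% of all genes called (median -0.63 against -0.03), with Cd24a at -2.43 and Cldn3 at -1.14. Of 11 mammary luminal markers 5 were lower, with Csn2 going from 198 and 108 reads to 0 (adjusted p = 7.61e-07), Wfdc18 at -1.20 and Areg at -1.13, and 4 higher. Of 8 basal markers 3 were lower, with Krt6a at -1.13, and 1 higher. Csn2, Areg, Krt6a and the simple epithelial markers Ehf, Rab25 and Prom1 would not have passed the filter on low values without the day 4 libraries. Such genes were favoured to come out lower on day 8. Nothing is therefore read from their p-values or from the counts that hold them. In BAT control cells Cd24a fell as well (-2.99), while Esr1 (1.09) and Aldh1a3 (1.54) rose. Bcam (1.51 in WAT and 1.72 in BAT), Sbsn (1.97 and 1.13), Aldh1a2 (1.22 in WAT) and Cdsn (2.23 in BAT) were higher on day 8, and Cldn15 (-1.60) and Efemp1 (-1.04) lower in BAT. Of 7 tested mesothelial markers 3 were higher and 1 lower in WAT, with a median of 0.09 against -0.03 for all genes. In BAT, where 69.2% of all genes were called, 2 were higher and 2 lower, with a median of -0.07 against -0.10.

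Stromal genes were far above the epithelial ones. The 12 fibroblast markers summed to 13608 to 14339 FPKM in WAT day 4 control and 7911 to 8540.1 in BAT day 4 control, with Col3a1 (6214 and 4229.9) and Col1a2 (2297 and 887) among the highest, against 40.4 to 85.2 and 0.598 to 1.08 for the sum of the 10 genes studied here. Transcription factors that repress epithelial genes were high in both depots on day 4, with a sum of 180 to 182 in WAT and 179 to 185 in BAT control. Over the 16 libraries of replicates 1 and 2 the highest were Snai1, at day 4 control means of 17 in WAT and 65.8 in BAT, and Twist1, at 61.3 and 38.7. Contractile and pericyte markers summed to 183 to 208 in WAT and 127 to 160 in BAT, mostly Acta2 (88.9 and 54.3) and Tagln (72.5 and 50.0). Endothelial and immune markers were present in both depots, with sums in day 4 control of 18.7 to 20.9 and 12.1 to 15.1, and of 65.6 to 70.7 and 151 to 171 in WAT and BAT. High genes of single cell types were Cdh5 (6.82 and 5.07) and Pecam1 (5.14 and 4.71) of endothelium, Sox10 (4.40 and 6.76) of glia, and Lyz2 (55.4 and 138) and Cd68 (10.1 and 9.73) of macrophages. The muscle genes Acta1 (22.8 and 6.99) and Myh3 (5.41 and 2.55) and the adipocyte genes Fabp4 (1789 and 4569) and Adipoq (121 and 309) were found in both depots too. None of the endothelial, immune, muscle and adipocyte markers was higher in every WAT library than in every BAT library. Which cells carried Krt8, and whether they came with the depot, was not tested, because the libraries hold RNA of all cells of a culture together.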

How the data were processed

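Total RNA of 24 cultures was sequenced, and the authors deposited FPKM per gene and library in 2 tables, replicates 1 and 2 in 1 table of 16 libraries and replicate 3 in another of 8. The submitters' processing notes name HISAT2 2.2.0, HTSeq 0.11, FastQC 0.11.9 and mm9 without saying what each did, and how reads that fit several genes were treated is not given in the sources used here. Values were normalised by library total and gene length, so a few abundant genes lower all others. Whole reads were recovered from the FPKM in 100% of values (tolerance 0.01), which gave the depths and read numbers.

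The genes, marker lists and tests were chosen with earlier results of these data known. Named genes were the 10 members, the 5 genes most like each tested one by Pearson's r, the 3 highest other keratins, the 2 highest of each list and epithelial, mammary, basal, epidermal and mesothelial list genes called with a log2 change of at least 1. List genes that separated the depots, and Csn2, Kit, Wap, Lalba, Trp63, Muc16, Lrrn4 and Calb2, were named after their values were seen. The values of a single list gene are not reported here. The tables were normalised separately, so the tests used replicates 1 and 2: limma 3.58.1 in R 4.3.3 on log2(FPKM + 1), with 8 group means, a mean-variance trend, two-sided tests, Benjamini-Hochberg adjustment within a comparison and calls at an adjusted p under 0.05. Genes under an FPKM of 1 in all but 1 of the 16 libraries were left out. A minimum of 10 reads on average in at least 1 group of each effect was set after values were seen. Symbols were matched to 158 of 159 list entries. Promoters came from RefSeq. The scripts were tested on simulated data. Alternatives were a pseudocount of 0.1, no filter, median-ratio scaling, quantile normalization, the replicate block, both tables together, voom on recovered reads, each library left out, and, added after the data were seen, both tables without WAT day 8 EGCG replicate 3. Floors of 3 reads cover counting error only.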

Additional observations from a re-analysis of the deposited data

Results flagged for a closer look

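Values singled out here are differences between depots in the size of an effect, those of the EGCG change tested as an interaction in replicates 1 and 2. The EGCG change on day 8, BAT minus WAT, was -0.97 for Krt7, which was higher with EGCG in WAT and lower in BAT. The same difference was -0.72 for Msln, which was higher with EGCG in both depots and by more in WAT. For Msln the calls of this difference and of the change in BAT depended on single libraries. In replicate 3 the difference was 0.40 as deposited and -0.60 after scaling within the table. The change from day 4 to day 8 in control cells, BAT minus WAT, was 2.36 for Krt19, which was lower on day 8 in every WAT library and higher in every BAT library, and this difference was not tested because day 4 values of the depots entered the choice of the genes. The adipocyte markers differed between the depots as well, at 4278.5 to 4901 FPKM in WAT and 8050.7 to 8653 in BAT in day 8 control, and their part in these differences was not tested.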

How the results depend on the processing

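Values were recomputed under 7 other settings, under 1 added after seeing the data, and in 16 fits that each left out 1 library. Of all values under alternatives, 608 kept their direction and side of the threshold or moved little, 70 lost their call, 10 gained one, 10 changed sign and 18 without a test moved by more than the spread between replicates. None of the values that changed sign passed in the fit where it did so. Msln in BAT against WAT on day 8 with EGCG was at -0.11 with both tables, -0.0348 with both tables without WAT day 8 EGCG replicate 3, and -0.17 to 0.35 with 1 library left out. EGCG against control in WAT on day 8 gave -0.0106 for Krt8 with both tables, -0.0298 for Krt14 and -0.23 for Krt18 with both tables without WAT day 8 EGCG replicate 3, and, with 1 library left out, -0.14 to 0.69 for Krt8, -0.0679 to 0.44 for Krt18 and -0.00916 to 0.67 for Epcam, the lowest without WAT day 8 EGCG replicate 1 and the highest without replicate 2. The depot difference of the day change of Msln, at 0.65 in the main analysis, was -0.22 by voom. The number of the 10 genes called for EGCG in BAT was 1 by voom on day 4. On day 8 it was 1 with median-ratio scaling and 0 without the filter on low values, where limma gave 3 at an unadjusted p under 0.05 and voom on the filtered genes called 2, and it was 0 to 2 with 1 library left out. For day 8 against day 4 in WAT it was 3 with both tables, 3 when WAT day 8 EGCG replicate 3 was also left out, and 3 to 5 with 1 library left out. For the depot difference of the EGCG change it was 1 with a pseudocount of 0.1, 1 without the filter, 1 with both tables without WAT day 8 EGCG replicate 3, and 1 to 2 with 1 library left out. The causes were not tested.

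The same replicate number in 2 groups carried no shared deviation, with correlations of deviations from -0.07 to 0.08, so the numbers were not taken to pair samples. With the replicate block 1 call changed, that of Krt5 in BAT against WAT in day 8 control (-0.77, adjusted p = 0.0376), and 54 other values kept theirs. With 2 libraries per group in a test, 0 or few reads in BAT for 5 genes and 3 genes testable in BAT, a small change of an epithelial gene in BAT could not have been seen.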

Other observations

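Among the 68 genes that were higher in every WAT library than in every BAT library were also genes of body position and stroma, which are no epithelial markers. The homeobox genes Irx1 (mean FPKM over the WAT libraries 14.2), Irx2 (9.87), Hoxc10 (8.56), Hoxc9 (4.06), Hoxa10 (3.44), Hoxa9 (2.39) and Hoxc11 (0.640) were in this set, and the highest BAT library held 366 reads of Irx1, 416 of Irx2, 5 of Hoxc10 and 0 of Hoxc11. The proteoglycan Dcn (779), a gene of fibroblasts, was the highest of the set and was also abundant in BAT. Epithelial genes outside the marker lists were Wfdc2 (4.05), a secreted protease inhibitor of glandular epithelium with at most 1 read in a BAT library, and Slpi (10.4), another one, with at most 39. These genes were named after their values were seen, and day 4 values entered the comparison, so they are a description.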
